A study of Mus musculus with 16 samples.

Results

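The subunits of oxidative phosphorylation and their close companions were followed in mouse liver by RNA sequencing. Rows were taken by symbol: those that begin with Ndufa, Ndufb, Ndufc, Ndufs, Ndufv, Uqcr, Cox4i, Cox5, Cox6, Cox7, Cox8 or Atp5, the succinate dehydrogenase genes Sdha to Sdhd, Cyc1, and the protein genes of mitochondrial DNA. Of 126 such rows, 8 whose names end in -ps and 14 with a mean under 1 TPM were left out, and 104 of 55487 rows remained. TPM is a level per unit of transcript length, scaled so that every library has the same sum. Of the 104 members, 91 lie in nuclear chromosomes and 13 in mitochondrial DNA. Complex I holds 52, complex II 4, complex III 10, complex IV 19 and complex V 19. Ndufa4 and Ndufa4l2, which carry complex I names, were counted with complex IV. The prefix Ndufa also takes 8 Ndufaf genes, which encode assembly factors and not subunits, and Cox7a2l, counted with complex IV, encodes a factor that joins complexes III and IV. The member rows nearest above the threshold were Cox8b (1.18 TPM), Cox6b2 (1.92 TPM) and Ndufa4l2 (2.34 TPM), and those nearest below it were Ndufs6b (0.338 TPM), Cox7c-ps1 (0.319 TPM) and Cox4i2 (0.167 TPM). One row removed for its ending, Ndufb1-ps, had a mean of 47.1 TPM.

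The respiratory chain passes electrons from NADH at complex I, or from succinate at complex II, through complexes III and IV to oxygen. Complexes I, III and IV pump protons across the inner mitochondrial membrane, and complex V, the ATP synthase, lets them flow back to make ATP. Most subunits are encoded in the nucleus and imported, while a small set of hydrophobic membrane subunits is encoded in mitochondrial DNA, whose strands are transcribed as long precursors that are cut at the transfer RNAs. Hepatocytes are rich in mitochondria and burn fatty acids through this chain.

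All mice were on a high-fat diet, on a C57/Bl6J background, and the genotype given for every library is J1 J2 lf/lf. There were 6 libraries named Flpo, which the series text names LJ1J27b for the 7b spliceoforms of the JNK stress kinases in hepatocytes. The 5 libraries named Cre are LJ1J27a, for the 7a spliceoforms, and the 5 named GFP are the controls, LJ1J2control. The sources used here give neither the delivery of the recombinases Flpo and Cre nor the age and sex of the mice or the length of the diet. Nothing in the labels ties each library to its own mouse, so a p-value here weighs a difference against library-to-library spread, which may be technical. Library totals, the depth behind all values, were 27929400 to 36043300 estimated counts. The 6 hepatocyte markers read to check the liver label, albumin among them, summed to 53605 to 76770 TPM.

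A pair of libraries stood apart in the genes studied here, Flpo replicate 1 and Cre replicate 4, which were also the deepest, at 36043300 and 33720700 counts. Their mitochondrial transcripts had another profile from the other 14 libraries. For mt-Co2, a copper-carrying subunit of complex IV, Flpo 1 had 3278 CPM and Cre 4 had 4717 CPM, while the other 14 lay between 315 and 830 CPM. CPM is the count divided by the library total, scaled with its TMM factor, and expressed per 1e6. For mt-Nd3, a membrane subunit of complex I, they had 88.6 and 71.8 CPM, against 569 to 813 CPM in the others. For its neighbour mt-Nd4l they had 294 and 265 CPM, against 62.1 to 142 CPM in the others. In both libraries together, 57 of 103 members lay below all other 14 libraries and 4 above them, whereas 450 and 324 of 13905 genes did so. Calls and medians are therefore given with and without these libraries, and what sets them apart was not tested.

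Sequences are shown for the members that the comparisons turn on. In GRCm38, Sdha spans bases 74322254 to 74350280 of chromosome 13 (minus strand), and Cox7a1 bases 30184144 to 30186078 of chromosome 7 (plus strand). The bases before their starts, from RefSeq's GRCm38.p6 promoters at chr13:74350281-74350490 (minus strand) and chr7:30183921-30184143 (plus strand), are given because these members passed the test in both comparisons with Cre. Capitals mark matches to the motif of NRF1, a transcription factor of many respiratory chain genes; the motif is GCGCA and GCGC with 1 base of any kind between them.
Sdha: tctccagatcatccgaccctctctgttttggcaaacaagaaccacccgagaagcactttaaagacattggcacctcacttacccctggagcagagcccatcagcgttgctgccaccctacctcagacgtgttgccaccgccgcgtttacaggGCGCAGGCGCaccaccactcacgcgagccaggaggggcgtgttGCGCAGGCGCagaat
Cox7a1: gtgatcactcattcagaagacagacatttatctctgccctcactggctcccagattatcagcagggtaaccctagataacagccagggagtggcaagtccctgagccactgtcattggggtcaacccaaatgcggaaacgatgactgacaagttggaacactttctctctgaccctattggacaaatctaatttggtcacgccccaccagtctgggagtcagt
The Sdha stretch of 210 bases holds 2 matches, 98 and 55 bases before the RefSeq start, and the Cox7a1 stretch of 223 bases holds none. Promoters from 250 bases before to 50 bases after the start were matched by symbol for 75 of the 91 nuclear members. On either strand, the NRF1 motif was in 19 of these 75 (25.3%), and in 11% of 10601 promoters of genes tested here. The motif CCGGAAG of the ETS family, which the factor GABP binds, was in 25.3% of the members and 19.2% of the genes tested. The YY1 motif AAGATGGC was in 11 members (14.7%) and in 5.08% of the genes tested. A match is a description of letters and not a bound site.

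Among the mitochondrial genes, mt-Atp8 and mt-Atp6 overlap on the same strand at chrM:7927-7969 in GRCm38. The shared 43 bases are printed because reads that fall in them can belong to either subunit of complex V, and the capitals mark the start codon of mt-Atp6.
mt-Atp8 and mt-Atp6: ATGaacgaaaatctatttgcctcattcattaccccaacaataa
mt-Nd4l and mt-Nd4 share 7 bases, from 10167 to 10173. On the opposite strand, mt-Nd6 (13552 to 14070) overlaps the end of mt-Nd5 (11742 to 13565). How the authors' counting split such reads, or reads shared with copies of mitochondrial DNA in the nuclear genome, was not stated in the sources used here.

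The mitochondrial members were the most abundant. Their mean TPM over the 16 libraries ran from 992 for mt-Atp8 to 14276 for mt-Co1, the catalytic core of complex IV, with a median of 6473. Together they held 6.35% to 9.55% of TPM in a library, and the nuclear members 2.06% to 3.39%. Among nuclear members the highest were Cox6a1 of complex IV (1311 TPM), Atp5b, the catalytic beta subunit of complex V (1262 TPM), and Uqcrq of complex III (1227 TPM). Median levels were 179 TPM for the 37 nuclear subunits of complex I, which ran from 53.9 to 409 TPM, and 192 TPM for the 4 of complex II. They were 368 TPM for the 9 of complex III, 374 TPM for the 15 of complex IV and 440 TPM for the 17 of complex V, with Cox7a2l left out of complex IV. Assembly factors lay lower, from 3.64 TPM for Ndufaf5 to 40.4 TPM for Ndufaf8. TPM of very short transcripts depends on the effective length used, so levels between genes are approximate. Ndufb4c (278 TPM), counted among the 37, is listed by the annotation as a processed pseudogene. It is a near-copy of Ndufb4 (53.9 TPM), so they may share reads, and their separate levels are uncertain.

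**Figure D1:**
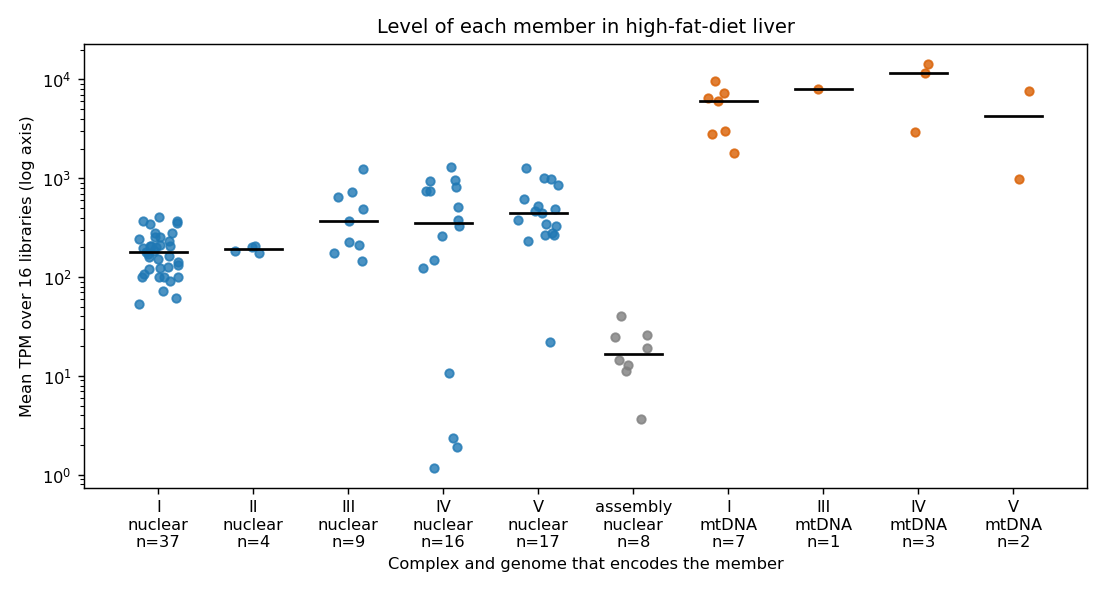
Mean TPM over 16 libraries of each of the 104 members, on a log axis, by complex and by the genome that encodes it; points are genes and lines are medians, and the assembly column holds the 8 Ndufaf genes. Mitochondrial members sit between 992 and 14276 TPM, above most nuclear members, and the lowest nuclear points are minor isoforms of complex IV.

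In the isoform pairs of complex IV, 1 gene took nearly all of the level. Cox7a1, the isoform typical of heart, skeletal muscle and brown fat, made up 3.0% of the summed TPM of Cox7a1 and Cox7a2 on average, with a range of 0.642% to 5.61%. Cox4i2, an isoform known from lung, made up 0.0159% of the Cox4i pair, and the testis form Cox8c was listed at 0 in all 16 libraries. The c subunit of the ATP synthase was shared more evenly between its 3 genes: Atp5g3 gave 68.2%, Atp5g1 30.1% and Atp5g2 1.74% of their sum.

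Livers named for the 7b spliceoforms were first set against the controls, Flpo against GFP. No member passed the test there. Of the 103 members that passed the filter on low counts, 0 passed edgeR's quasi-likelihood test at an adjusted p under 0.05, while 0.0288% of all 13905 genes did. At an unadjusted p under 0.05 there were 3 members, against 9.73% of all genes, and DESeq2 and limma-voom also called 0 members. The smallest adjusted p belonged to Ndufa4l2, a paralog of Ndufa4 that is induced by low oxygen, at 0.381 with a log2 fold change of -0.77. Groups did not overlap for Sdha, whose Flpo libraries all lay above GFP (log2 fold change 0.16, SE 0.07, adjusted p = 0.456), and for Ndufb4c, whose Flpo libraries all lay below (-0.23, adjusted p = 0.423). Non-overlap was seen in 1.55% of all genes.

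Fold changes were small and mostly negative: the median log2 fold change was -0.08 over the 90 nuclear members tested, 71 of them below 0, beside -0.01 over all genes. Without Flpo 1 and Cre 4 the nuclear median was -0.01, with 53 of 90 below 0 and again 0 called. The 13 mitochondrial members had a median of 0.02 with all libraries and -0.03 without the pair. In bulk RNA, fewer cells of a type and less RNA per cell cannot be told apart, here and in what follows.

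Livers named for the 7a spliceoforms were then set against the same controls, Cre against GFP. Cox7a1 and Sdha fell, and mt-Nd2 rose. These 3 calls among 103 members (2.91%) compare with 9.55% of all genes, 3.97% higher and 5.58% lower, so the share of members called was below that of the table. Some markers of other cell types moved with the Cre group. The 5 stellate cell markers summed to 45.04 to 88.4 TPM in Cre, against 74.5 to 120.8 TPM in GFP. Of these 5, 2 fell: Col1a1 and Lrat (adjusted p = 0.00381 and 0.0166, and 0.00810 and 0.00735 without the pair). Red cell markers summed to 769 to 1199.8 TPM in Cre, against 1070.3 to 2480 TPM in GFP, Kupffer cell markers to 51.7 to 71.7 TPM, against 51.8 to 94.1 TPM, and cholangiocyte markers to 3.70 to 5.50 TPM, against 2.99 to 3.99 TPM, all with overlap. Outside the stellate list, edgeR's test also called Sox9 of the cholangiocyte list (log2 fold change 1.31, adjusted p = 0.00455) and Kdr of endothelium (0.52, 0.0316), both higher. Sox9 did not overlap, at 2.33 to 3.93 TPM in Cre and 0.720 to 2.26 TPM in GFP. Of the other cholangiocyte markers, Krt19 (-0.17) and Krt7 (-0.62) were below 0 and Epcam (0.18) above, and none passed. Stab2, Clec4g and Pecam1 of endothelium were above 0 (0.06, 0.27 and 0.42) and did not pass. Endothelial markers summed to 29.5 to 36.3 TPM in Cre, against 24.4 to 36.6 TPM in GFP, with overlap. Of red cell and hepatocyte markers, Hbb-bs (-0.77, 0.0421) and Ttr (-0.35, 0.0298) fell, and Apoa1 rose (0.50, 0.0326). Without the pair Kdr did not pass (0.0585). The part of all these markers in the results with Cre was not tested.

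Cox7a1 had 0.393, 0.431, 0.373, 0.211 and 0.196 CPM in Cre libraries 1 to 5, against 0.982, 1.57, 1.11, 1.79 and 1.69 CPM in GFP libraries 1 to 5. All Cre values lay below all GFP values. Its log2 fold change was -2.14 (SE 0.39, adjusted p = 0.00218 in edgeR's quasi-likelihood test), a 4.42-fold lower level, and -2.02 (adjusted p = 0.00200) without Flpo 1 and Cre 4. The counts behind it are few, at 5.43 to 55.3 per library. Sdha, the flavoprotein subunit of complex II that oxidises succinate and thus also an enzyme of the tricarboxylic acid cycle, had 378, 340.2, 384, 355 and 326 CPM in Cre, against 465, 412, 415, 410.5 and 439 CPM in GFP. Again the groups did not overlap. The log2 fold change of Sdha was -0.26 (SE 0.07, adjusted p = 0.0273), and -0.26 (adjusted p = 0.0344) without the pair of libraries. Leaving out any of 6 single libraries ended the call of Sdha (GFP 1, GFP 2, GFP 4, GFP 5, Cre 2 and Cre 5), at adjusted p of 0.0524 to 0.0957. The call also ended with no low-count filter (0.0914), with only the 2 groups (0.0966) and with a replicate block (0.0811). It held in 20 of 29 alternative fits.

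mt-Nd2, a membrane subunit of complex I, had 4334, 5151, 5579.6, 5752 and 4180.0 CPM in Cre, against 3823, 3643, 3148, 3499 and 4185 CPM in GFP. Cre 5 lay just below the highest GFP library and the other 4 Cre libraries above all GFP libraries. The log2 fold change was 0.45 (SE 0.13, adjusted p = 0.0300), and 0.39 (adjusted p = 0.0379) without the pair. The call ended when GFP 2, GFP 3, GFP 4, Cre 2, Cre 3 or Cre 4 was left out (adjusted p of 0.0521 to 0.0729), and on scalings by library total or by TPM (0.123 and 0.319).

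**Figure D2:**
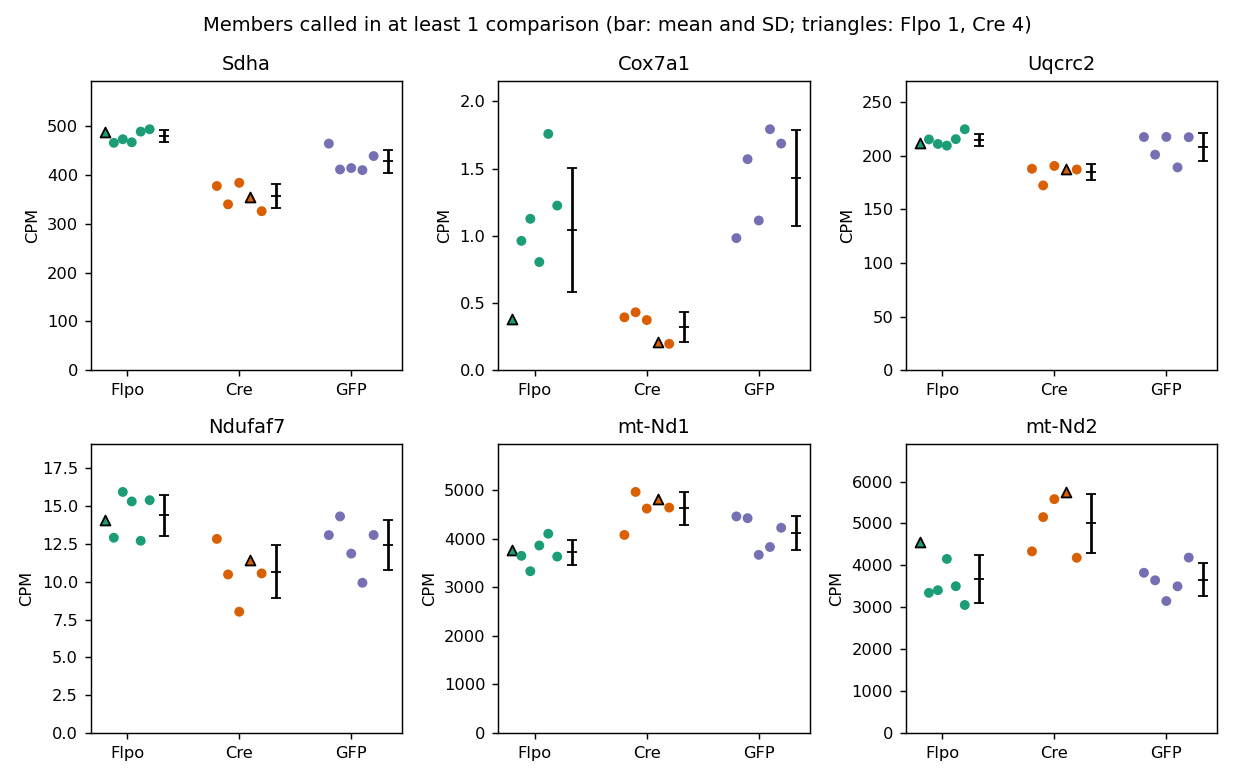
CPM of the 6 members called in at least 1 comparison, with 1 point per library, Flpo on the left, Cre in the middle and GFP on the right; bars are mean and SD, and triangles are Flpo 1 and Cre 4. Sdha in Cre (326 to 384 CPM) lies below every Flpo and GFP library, and Cox7a1 in Cre does not exceed 0.431 CPM.

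Over all nuclear members tested, those called included, 84 of 90 had a log2 fold change below 0 in Cre against GFP. Their median was -0.19, while the median of all genes was 0.00. Of the 103 members 25 (24.3%) had an unadjusted p under 0.05, and 24.3% of all genes did. By complex the medians were -0.20 for complex I with its assembly factors, -0.17 for II, -0.17 for III, -0.24 for IV and -0.18 for V. All 17 nuclear members of complex V were below 0, from -0.46 for Atp5k to a value near 0 for Atp5g1. Within complex I, the 7 nuclear core subunits, which carry the redox centres, had a median of -0.08. The 30 supernumerary rows, the pseudogene Ndufb4c among them, had a median of -0.22, with 29 of 30 below 0. Nearest to the threshold was Ndufc1 (log2 fold change -0.73, adjusted p = 0.0514), whose GFP 3 library stood out at 76.1 CPM.

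Without Flpo 1 and Cre 4, the nuclear median in Cre against GFP was -0.10, with 72 of 90 below 0. The medians by complex were then -0.11 for I, -0.19 for II, -0.07 for III, -0.10 for IV and -0.09 for V, and of these the median of complex II alone was not nearer to 0 than with all libraries. In that fit 7 of 103 members were called, 1 higher and 6 lower (10.5% of all genes). The added falls were mt-Nd3 (-0.32, adjusted p = 0.0167), Sdhc, which anchors complex II in the membrane (-0.24, 0.0341), Ndufc1 (-0.82, 0.0379) and Ndufab1, the mitochondrial acyl carrier protein (-0.55, 0.0446). For mt-Nd3 the groups did not overlap even with all libraries: Cre had 569, 594, 569, 71.8 and 589.8 CPM, against 729, 678, 813, 674 and 722 CPM in GFP. In all, 8 of 104 members lay wholly below GFP and 0 above, beside 645 below and 495 above of 13905 genes tested (8.20% together). These 8 were Sdha, Cox7a1, mt-Nd3, Uqcrb, Atp5c1, Ndufs5, Ndufa7 and Ndufb4c.

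The counts depended on scaling. Transcripts of the major urinary protein (Mup) genes took 1.95% to 6.49% of counts in Flpo, 5.65% to 13.8% in Cre and 2.24% to 3.91% in GFP. The part of that share in the values that follow was not tested. With library totals alone the median of all genes in Cre against GFP was -0.14 and that of nuclear members -0.33, with 35 members lower and 0 higher (300 higher and 1656 lower of all genes). With limma on log2(TPM + 1) these medians were -0.12 and -0.37, with 50 members lower and 0 higher (218 higher and 1909 lower of all genes). Summed over nuclear members, TPM was 20628 to 27676 in Cre, against 29115 to 32635 in GFP, without overlap, and 22782 to 33915 in Flpo. On TPM the nuclear sums of complexes I, II, IV and V also separated Cre from GFP, and those of complex III overlapped. In CPM the sums over all nuclear members overlapped, at 8804 to 11894 in Cre and 11036 to 13095 in GFP.

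**Figure D3:**
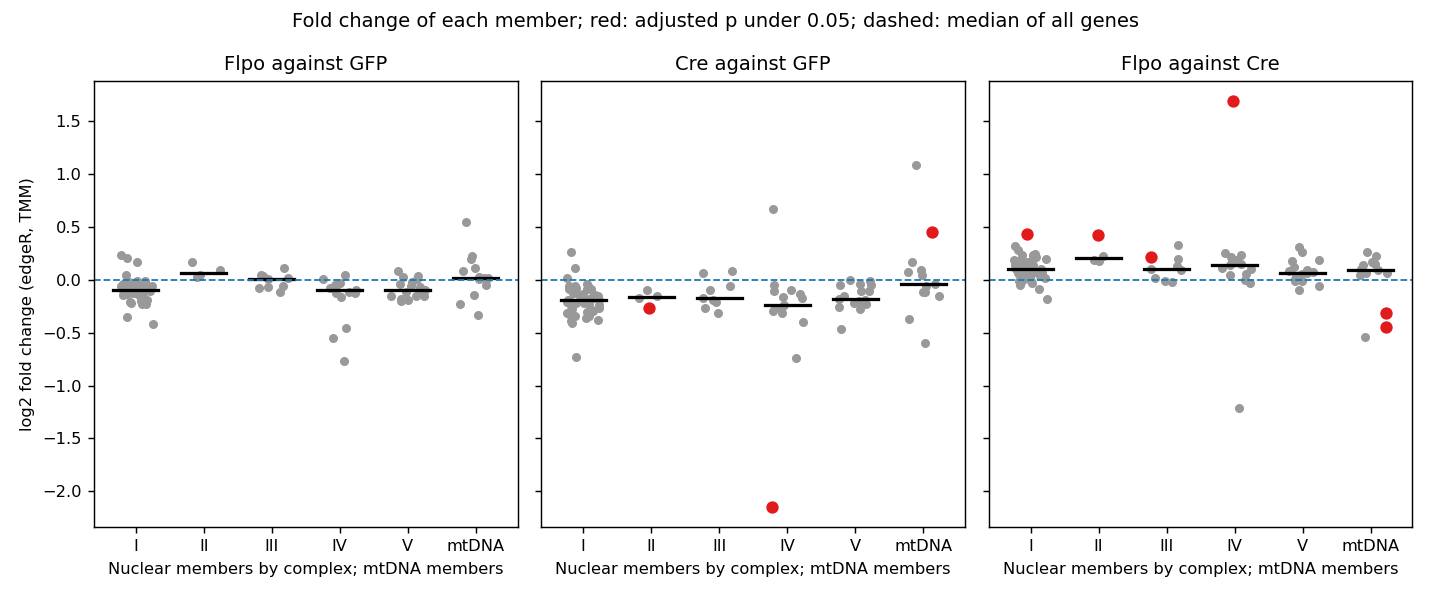
log2 fold change of each of the 103 members tested, for Flpo against GFP, Cre against GFP and Flpo against Cre, by complex for nuclear members and in 1 column for mitochondrial members; red points passed at an adjusted p under 0.05, black lines are medians and the dashed line is the median of all genes. Nuclear medians lie below 0 in Cre against GFP, from -0.24 for complex IV to -0.17 for complexes II and III.

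Flpo against Cre sets the 7b livers beside the 7a livers. Sdha, Cox7a1, Uqcrc2 and the assembly factor Ndufaf7 rose, and mt-Nd1 and mt-Nd2 fell. These 6 of 103 members (5.83%) compare with 13.7% of all genes, 7.45% higher and 6.26% lower. This comparison shares the Cre libraries with the one before. Stellate cell markers separated the groups here, with sums of 94.0 to 137 TPM in Flpo, against 45.04 to 88.4 TPM in Cre, and 3 of the 5 rose: Col1a1, Lrat and Reln (adjusted p = 0.00400, 0.00187 and 0.0359; 0.00863, 0.000832 and 0.0274 without the pair). Kupffer cell markers had medians of 85.6 TPM in Flpo and 53.3 TPM in Cre, with overlap. Sox9, Kdr and Apoa1 fell (log2 fold changes -1.68, -0.61 and -0.89, adjusted p = 0.000296, 0.00695 and 0.000346 in edgeR's test), and also passed without the pair. Their lists were mixed. Krt7 and Epcam of the cholangiocyte list (1.38 and 0.67), Stab2 of endothelium (0.20) and Ttr of hepatocytes (0.11) were above 0 and did not pass. The other markers of those lists were below 0 and did not pass. Without the pair, Epcam (1.01, adjusted p = 0.0359) and the stellate marker Dcn (0.47, 0.0490) also rose and passed. The part of these markers in the results was not tested.

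Sdha had 466.4 CPM in its lowest, 481 CPM at the median and 494 CPM in its highest Flpo library, against the 326 to 384 CPM of Cre given above. The groups were far apart, with a log2 fold change of 0.43 (SE 0.07, adjusted p = 0.000557), and 0.42 (adjusted p = 0.00128) without Flpo 1 and Cre 4. In Flpo against Cre, Sdha passed in all 29 alternative fits. The other complex II genes, Sdhb with the iron-sulfur clusters and the anchors Sdhc and Sdhd, had log2 fold changes of 0.22, 0.18 and 0.18 and did not pass with all libraries (adjusted p = 0.151, 0.139 and 0.292). Sdhc passed without the pair (0.25, adjusted p = 0.0193). Summed over the 4 genes, complex II had 996 ± 32.9 CPM in Flpo (SD, n = 6), 808 ± 50.5 CPM in Cre and 925 ± 45.5 CPM in GFP (n = 5 each). The lowest Flpo library of this sum, at 950.4 CPM, was above the highest Cre library, at 865 CPM. Without Flpo 1 and Cre 4 the sums were 1003 ± 32.2 CPM in Flpo (n = 5) and 806 ± 58.1 CPM in Cre (n = 4). The separation rested on Sdha: the other 3 genes summed to 475 to 544 CPM in Flpo, against 385 to 490.04 CPM in Cre, and these overlapped, also without the pair (483 to 544 CPM, against 385 to 490.04 CPM).

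Cox7a1 had 0.380, 1.04 and 1.76 CPM as its lowest, median and highest Flpo values, against 0.196 to 0.431 CPM in Cre. The lowest value was that of Flpo 1, and the other 5 Flpo libraries lay above all Cre libraries. The log2 fold change was 1.69 (SE 0.38, adjusted p = 0.00620), and 1.74 (adjusted p = 0.00375) without the pair. Both calls of Cox7a1 held in all 29 alternative fits. Cox7a1 is a muscle and brown fat isoform, so markers of those tissues were read beside it. Ckm was at 0 in all 16 libraries, Acta1 and Ucp1 were at 0 in 15, and Myh7 in 14. Cidea, a lipid droplet protein of brown fat that fatty liver also makes, moved with Cox7a1 in the comparisons with Cre. It was at 7.19 to 88.7 TPM in Flpo, 0.222 to 1.32 TPM in Cre and 10.6 to 21.7 TPM in GFP. In Flpo against GFP the signs differed and neither gene passed edgeR's test. There Cidea had a log2 fold change of 1.59 (adjusted p = 0.340), and Cox7a1 -0.67 to -0.28 over the fits. The log2 fold changes of Cidea were 5.81 in Flpo against Cre (adjusted p = 6.49e-05) and -4.22 in Cre against GFP (adjusted p = 0.00107), and 5.80 and -4.32 without the pair (adjusted p = 0.000337 and 0.00336). Summed, these 5 markers had 7.19 to 88.7 TPM in Flpo, 0.222 to 1.32 TPM in Cre and 10.6 to 21.7 TPM in GFP, almost entirely from Cidea, and their part in the Cox7a1 result was not tested.

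Uqcrc2, a core protein of complex III on chromosome 7 from 120635176 to 120659524, had 209, 213 and 225 CPM as its lowest, median and highest Flpo values, against 188, 172, 191, 187 and 187 CPM in Cre. All Flpo libraries lay above all Cre libraries. The log2 fold change was 0.21 (SE 0.06, adjusted p = 0.0335), and 0.22 (adjusted p = 0.0401) without the pair, but the call held in only 13 of the 29 alternatives, with adjusted p up to 0.150. It ended when any Flpo library, Cre 1, Cre 2, Cre 3, GFP 1, GFP 2 or GFP 4 was left out. Ndufaf7, a methyltransferase needed for assembly of complex I, had 12.7, 14.7 and 15.9 CPM in Flpo, against 12.8, 10.5, 8.02, 11.5 and 10.6 CPM in Cre. Only Cre 1 reached into the range of Flpo. Its log2 fold change was 0.43 (SE 0.12, adjusted p = 0.0265), and 0.47 (adjusted p = 0.0377) without the pair. Its call ended when Cre 2, Cre 3, Flpo 3, Flpo 4 or Flpo 6 was left out, at adjusted p of 0.0564 to 0.0770.

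mt-Nd2 had 3054, 3454 and 4562 CPM as its lowest, median and highest Flpo values, the highest in Flpo 1, against 4180.0 to 5752 CPM in Cre. Without Flpo 1 the groups did not overlap. The log2 fold change was -0.45 (SE 0.12, adjusted p = 0.0182), and -0.46 (adjusted p = 0.0123) without the pair. mt-Nd1, the neighbouring gene upstream of mt-Nd2 and also a membrane subunit of complex I, had 3329, 3704 and 4101 CPM in Flpo, against 4077, 4962, 4619.9, 4810.4 and 4639.7 CPM in Cre. Flpo 5 alone passed the lowest Cre library. Its log2 fold change was -0.31 (SE 0.08, adjusted p = 0.0198), and -0.30 (adjusted p = 0.0384) without the pair; leaving out Cre 2 ended its call (adjusted p = 0.0535). With an offset for gene length neither fall passed (adjusted p = 0.0596 for mt-Nd2 and 0.0574 for mt-Nd1). Under scaling by library totals the log2 fold changes were -0.31 for mt-Nd2 and -0.18 for mt-Nd1 and did not pass (adjusted p = 0.0946 and 0.209). On log2(TPM + 1) they were -0.24 and -0.10 (adjusted p = 0.304 and 0.616). The median of all genes was 0.13 with library totals and 0.14 on log2(TPM + 1).

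Among all nuclear members tested, those called included, the sign was mostly positive, with 74 of 90 above 0 and a median of 0.10, beside -0.00 for all genes. The median was 0.20 in complex II, 0.14 in IV, 0.10 in I and III and 0.07 in V. An unadjusted p under 0.05 was reached by 14 of 103 members (13.6%) and by 27% of all genes. Besides Sdha and Uqcrc2, Atp5a1, the alpha subunit of complex V, lay wholly above Cre, and no member lay wholly below. Of 13905 genes tested, 629 lay wholly above and 461 wholly below (7.84% together). Without Flpo 1 and Cre 4 the nuclear median was again 0.10, with 72 of 90 above 0, and 5 members were higher and 2 lower (15.3% of all genes called). Library totals gave 20 members higher and 0 lower (1810 and 454 of all genes), and log2(TPM + 1) gave 42 and 0 (2443 and 327).

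Nuclear and mitochondrial members were then set side by side in each library, as the median over genes of the log2 difference from the GFP mean. For nuclear members this lay between -0.39 and 0.07 in Flpo, between -0.46 and -0.00 in Cre and between -0.09 and 0.16 in GFP. The lowest values were -0.39 in Flpo 1 and -0.46 in Cre 4, followed by -0.20 in Cre 2 and -0.20 in Flpo 4. For mitochondrial members the ranges were -0.13 to 0.16 in Flpo, -0.26 to 0.11 in Cre and -0.18 to 0.20 in GFP, and the groups overlapped throughout. The summed TPM of mitochondrial over nuclear members was 3.83 in Flpo 1 and 4.47 in Cre 4, and 2.45 to 3.36 in the other 14 libraries. In those, Flpo ran from 2.50 to 3.36, Cre from 2.53 to 3.25 and GFP from 2.45 to 3.14. The groups thus overlapped in the balance of nuclear and mitochondrial transcripts.

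**Figure D4:**
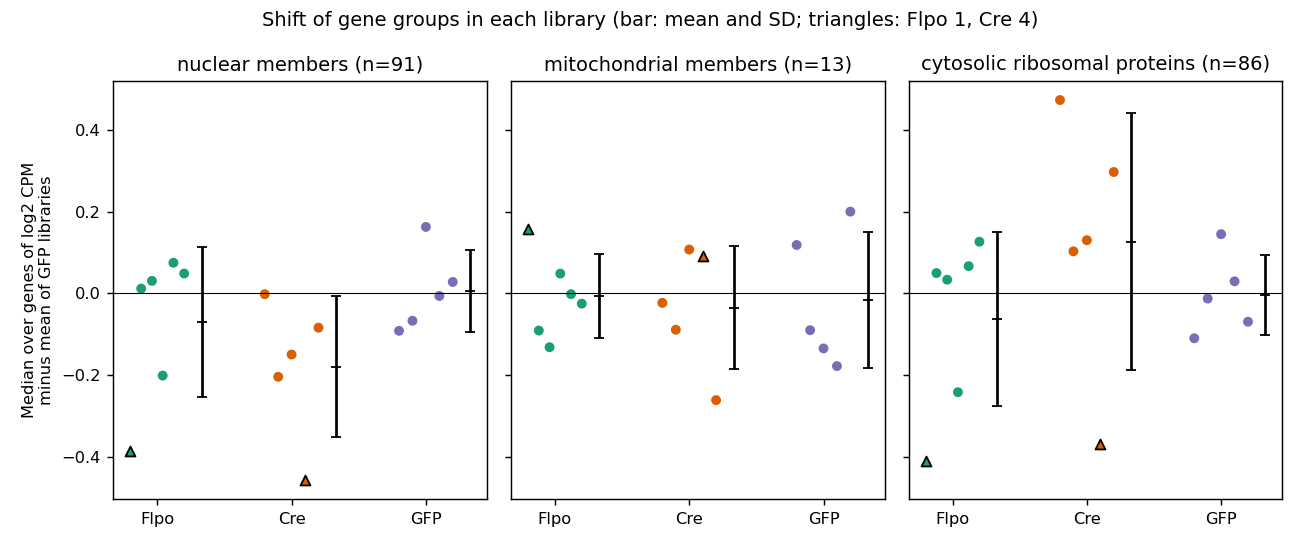
Median over genes of log2 CPM minus the mean of the GFP libraries, for nuclear members, mitochondrial members and cytosolic ribosomal protein genes; each point is 1 library, Flpo on the left, Cre in the middle and GFP on the right, bars are mean and SD, and triangles are Flpo 1 and Cre 4. The triangles are the lowest points for nuclear members (-0.39 and -0.46) and for ribosomal proteins (-0.41 and -0.37), and not for mitochondrial members.

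Gene length moved with these shifts. Of the 90 nuclear members tested, 82 are among the shortest 3477 of the 13905 genes, as do 82 of 85 cytosolic ribosomal protein genes. The median of those shortest genes was -0.18 in Flpo 1, -0.21 in Cre 4 and -0.15 in Flpo 4, and -0.07 to 0.10 in the other 13 libraries. With an offset for length the nuclear medians were 0.01 in Flpo against GFP, -0.08 in Cre against GFP and 0.07 in Flpo against Cre. Ribosomal proteins had the opposite sign from nuclear members in the comparisons with Cre, with medians of 0.15 in Cre against GFP and -0.18 in Flpo against Cre. Those medians were 0.27 and -0.23 without Flpo 1 and Cre 4. With library totals the ribosomal medians were 0.00 and -0.04, beside -0.14 and 0.13 over all genes. On log2(TPM + 1) they were -0.07 and 0.04, with the sign of the nuclear members, beside -0.12 and 0.14 over all genes. In each scaling they lay above the median of all genes in Cre against GFP and below it in Flpo against Cre.

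Mitochondrial transcripts differed mainly in the pair of libraries that stood apart. Relative to the median of the other libraries of its group, mt-Co2 was 7.56-fold higher in Flpo 1 and 9.55-fold higher in Cre 4, and mt-Nd4l 2.82-fold and 3.78-fold higher. The ratio for mt-Nd3 was 0.131 in Flpo 1 and 0.124 in Cre 4. mt-Atp6, the membrane channel subunit of complex V, had 962 and 1403 CPM, against 1782 to 3866 CPM in the other 14 libraries, and mt-Co3 of complex IV 3468 and 3323 CPM, against 4113 to 5773 CPM. mt-Co1 was above the others, at 18656 and 19263 CPM, against 12087 to 18408 CPM. These genes lie in 1 stretch of the mitochondrial genome, from mt-Co1 (start 5328) to mt-Nd4l (end 10173), where mt-Atp8 alone did not follow. Their directions differed within it. mt-Co1, mt-Co2 and mt-Nd4l were high, and mt-Atp6, mt-Co3 and mt-Nd3, which lie between mt-Co2 and mt-Nd4l, were low. For the remaining 7 mitochondrial genes the pair did not lie together above or together below the other 14.

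**Figure D5:**
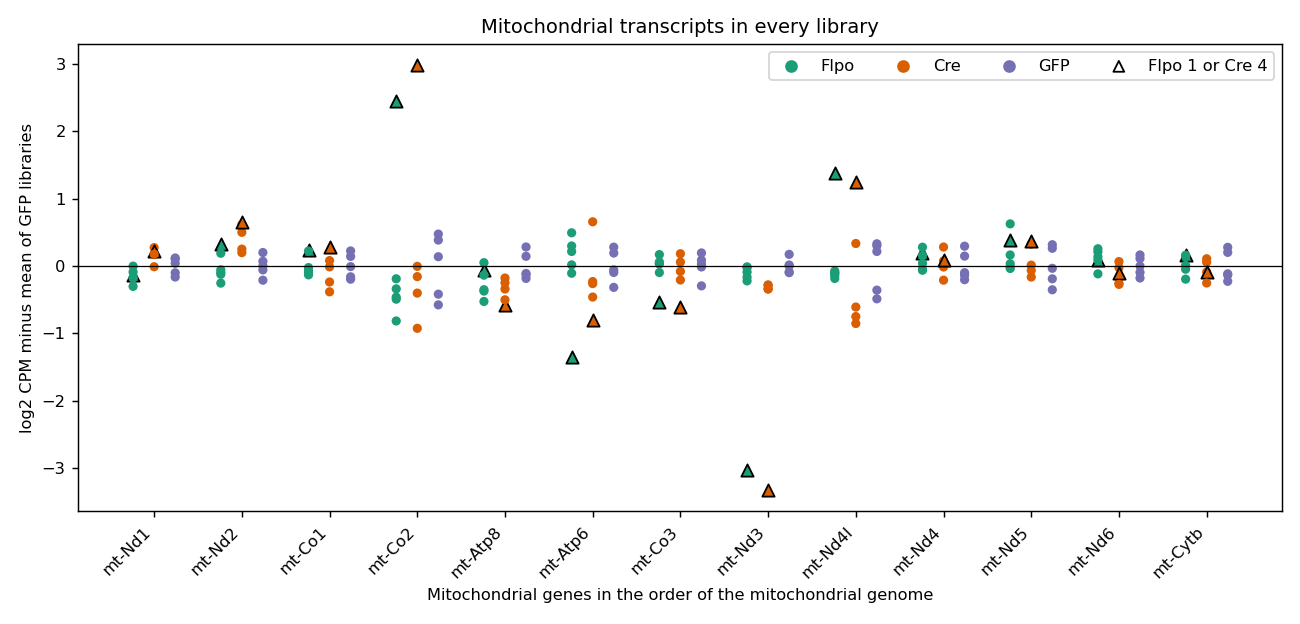
log2 CPM minus the mean of the GFP libraries for the 13 mitochondrial genes, in their order along the mitochondrial genome; each point is 1 library, with Flpo, Cre and GFP from left to right at each gene, and triangles are Flpo 1 and Cre 4. The triangles stand far above the other points at mt-Co2 and far below them at mt-Nd3.

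These libraries decide the fold changes of mt-Co2. Its log2 fold change was 0.55 in Flpo against GFP and 1.09 in Cre against GFP, and without Flpo 1 and Cre 4 it was -0.51 and -0.39. None of these passed (adjusted p = 0.854, 0.460, 0.420 and 0.294). The mitochondrial members as a set had medians of -0.04 in Cre against GFP and 0.09 in Flpo against Cre, and -0.05 and 0.06 without the pair.

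Genes that build and feed the chain were read from other lists, and none of these lists had a member called in Flpo against GFP with all libraries. Among 11 regulators of mitochondrial biogenesis, 2 rose and 1 fell in Cre against GFP, and 1 rose and 1 fell in Flpo against Cre, beside 9.55% and 13.7% of all genes called. Esrrg, a nuclear receptor that drives respiratory chain genes, had 7.62 ± 4.24 CPM in Flpo (SD, n = 6), 1.61 ± 1.07 CPM in Cre and 5.73 ± 1.67 CPM in GFP (n = 5 each). Its log2 fold changes were -1.82 in Cre against GFP (adjusted p = 0.0316) and 2.23 in Flpo against Cre (adjusted p = 0.00664). Pprc1, a coactivator related to PGC-1alpha, rose in Cre against GFP (0.85, adjusted p = 0.0336), as did Gabpb1, a subunit of GABP (0.57, adjusted p = 0.0451). Ppargc1a, the coactivator PGC-1alpha itself, had 7.05 ± 1.62 CPM in Flpo, 6.71 ± 3.39 CPM in Cre and 6.66 ± 1.60 CPM in GFP. Gabpb1 fell in Flpo against Cre (-0.53, adjusted p = 0.0413), which ended when any of Cre 2 to 5 or Flpo 3 to 6 was left out. The calls in Cre against GFP held in 21 of 29 alternatives for Esrrg, 15 for Pprc1 and 12 for Gabpb1, and each ended when GFP 1, GFP 2, GFP 4, GFP 5, Cre 2 or Cre 5 was left out, among others. Without the pair, Esrrg had log2 fold changes of -2.12 (adjusted p = 0.0201) and 2.66 (0.00406). Gabpb1 then did not pass in Cre against GFP (adjusted p = 0.0573), and 2 regulators rose (Esrrg and Gabpa) and 2 fell (Gabpb1 and Pprc1) in Flpo against Cre.

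Of 25 genes of mitochondrial DNA transcription, replication and RNA handling, 1 rose and 1 fell in Cre against GFP (8%), near the 9.55% of all genes. Mterf2, of the family of mitochondrial transcription termination factors, had 3.63 ± 0.976 CPM in Flpo, 1.63 ± 0.456 CPM in Cre and 3.56 ± 0.295 CPM in GFP. It fell in Cre against GFP (-1.12, SE 0.23, adjusted p = 0.00444) and rose in Flpo against Cre (1.15, SE 0.22, adjusted p = 0.00187), in all 29 alternatives of both. Without the pair these were -1.30 (adjusted p = 0.00153) and 1.39 (adjusted p = 0.000588). Polg, the polymerase of mitochondrial DNA, rose in Cre against GFP (0.39, adjusted p = 0.0280; 0.47, 0.00584 without the pair), a call that ended when GFP 1, GFP 2, GFP 5, Cre 2 or Cre 5 was left out. Tfam, which packages mitochondrial DNA and starts its transcription, had 44.96 ± 4.48 CPM in Flpo, 43.2 ± 10.5 CPM in Cre and 41.4 ± 2.24 CPM in GFP. Of these 25 genes Mterf2 alone was called in Flpo against Cre.

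Of 39 further assembly factors tested, 1 rose and 1 fell in Cre against GFP, and 3 rose and 1 fell in Flpo against Cre. These shares of 5.13% and 10.3% were below the 9.55% and 13.7% of all genes. Nubpl, which delivers iron-sulfur clusters to complex I, had 13.3 ± 0.706 CPM in Flpo, 8.29 ± 1.07 CPM in Cre and 11.3 ± 1.16 CPM in GFP. It fell in Cre against GFP (-0.44, adjusted p = 0.0158) and rose in Flpo against Cre (0.69, adjusted p = 0.000355). Sco2, a copper chaperone of complex IV, moved the other way in Flpo against Cre (-1.01, SE 0.13, adjusted p = 0.000106), with 29.2 ± 3.34 CPM in Flpo, 58.6 ± 8.15 CPM in Cre and 46.4 ± 9.72 CPM in GFP. In Flpo against GFP Sco2 had a log2 fold change of -0.67 that did not pass (adjusted p = 0.0998), and without Flpo 1 and Cre 4 it passed (-0.71, adjusted p = 0.0397). The others called were Cox11, a copper factor of complex IV, higher in Cre than GFP (0.42, adjusted p = 0.0384), and Tmem126b of complex I (0.32, adjusted p = 0.0184) and Coa6 of complex IV (0.65, adjusted p = 0.0173), higher in Flpo than Cre. The call of Cox11 held in 13 of 29 alternatives and ended when any GFP library, Cre 1, Cre 2, Cre 3 or Cre 5 was left out. That of Tmem126b ended when Cre 1, Flpo 5 or Flpo 6 was left out. Without Flpo 1 and Cre 4 all of these calls in Cre against GFP and Flpo against Cre held, with log2 fold changes of -0.48 and 0.70 for Nubpl, -1.13 for Sco2, 0.50 for Cox11, 0.36 for Tmem126b and 0.72 for Coa6. Coa6 then also fell in Cre against GFP (-0.53, adjusted p = 0.0472), and Uqcc1 rose in Flpo against Cre (0.51, adjusted p = 0.0142).

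Of 16 electron carriers and entry enzymes, 3 fell and 0 rose in Cre against GFP, and 2 rose and 0 fell in Flpo against Cre. These are 18.8% and 12.5%, beside 9.55% and 13.7% of all genes. Prodh, which feeds electrons from proline, had 205 ± 20.7 CPM in Flpo, 116 ± 17.4 CPM in Cre and 193 ± 60.1 CPM in GFP. Its log2 fold changes were -0.73 in Cre against GFP (adjusted p = 0.0104) and 0.82 in Flpo against Cre (adjusted p = 0.00264). Sqor, which feeds electrons from sulfide, changed by -0.57 (adjusted p = 0.0285) and 0.56 (adjusted p = 0.0176), and Coq8a of coenzyme Q synthesis fell in Cre against GFP alone (-0.75, adjusted p = 0.0457). The call of Sqor in Cre against GFP ended when GFP 1, GFP 3, GFP 5 or Cre 2 was left out, and that of Coq8a held in 14 of 29 alternatives and ended when any of 12 single libraries was left out. Without Flpo 1 and Cre 4 the values in Cre against GFP were -0.73 for Prodh, -0.58 for Sqor and -0.75 for Coq8a (adjusted p = 0.0205, 0.0478 and 0.0396), and in Flpo against Cre 0.85 for Prodh and 0.57 for Sqor (adjusted p = 0.00635 and 0.0377). Cytochrome c (Cycs) did not pass in any comparison, with log2 fold changes of 0.02 in Flpo against GFP, 0.20 in Cre against GFP and -0.18 in Flpo against Cre.

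Among 5 carriers and regulators of the ATP synthase, 2 fell in Cre against GFP and the same genes rose in Flpo against Cre (40%, beside 9.55% and 13.7% of all genes). Atpif1, the inhibitor of the ATP synthase when it runs in reverse, had 9.26 ± 2.44 CPM in Flpo, 5.81 ± 1.61 CPM in Cre and 11.9 ± 0.759 CPM in GFP. Its log2 fold changes were -1.04 in Cre against GFP (adjusted p = 0.00345) and 0.68 in Flpo against Cre (adjusted p = 0.0267). Slc25a5, an exchanger of ADP and ATP, had 441 ± 57.4 CPM in Flpo, 331 ± 26.1 CPM in Cre and 424 ± 16.4 CPM in GFP, with log2 fold changes of -0.35 (adjusted p = 0.0264) and 0.41 (adjusted p = 0.00620). The call of Atpif1 in Flpo against Cre ended when Cre 3, Flpo 3, Flpo 5 or Flpo 6 was left out, and that of Slc25a5 in Cre against GFP when GFP 1, GFP 4, GFP 5 or Cre 2 was left out. Without the pair of libraries that stood apart, the values were -0.88 and 0.59 for Atpif1 (adjusted p = 0.00272 and 0.0233) and -0.33 and 0.45 for Slc25a5 (adjusted p = 0.0139 and 0.00111). Of 13 genes of the tricarboxylic acid cycle besides Sdha to Sdhd, Suclg2, the subunit of succinyl-CoA ligase that makes GTP, was the only call (7.69% in both comparisons, below all genes). It had 330.1 ± 21.2 CPM in Flpo, 225 ± 22.2 CPM in Cre and 305 ± 22.4 CPM in GFP, with log2 fold changes of -0.44 (adjusted p = 0.00318) and 0.55 (adjusted p = 0.000252), and -0.50 and 0.58 without the pair (adjusted p = 0.000786 and 0.000123). Suclg2 and Sdha act in consecutive steps of the cycle, and in both genes the order of the group means was Flpo, GFP, Cre. That order was not particular to them, as Esrrg, Mterf2, Nubpl, Prodh and Slc25a5 also had it. Atpif1 had the order GFP, Flpo, Cre, and Sco2 the order Cre, GFP, Flpo. Of 79 mitochondrial ribosomal protein genes, 2 fell in Cre against GFP (Mrpl45 and Mrps36) and 2 rose (Mrpl45 and Mrpl49) and 1 fell (Mrps18b) in Flpo against Cre, below the shares of all genes at 2.53% and 3.80%, with medians of -0.06 and -0.03.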

How the data were processed

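Liver RNA was measured in 16 libraries after polyA enrichment with paired reads of 150 bases, per the labels' protocols. The authors deposited estimated counts and TPM per gene. The submitters' processing notes name cutadapt, STAR and mm10. No source used here names the counting program, the annotation or the strand setting. Values that are not whole made up 31.7% of the deposited estimated counts. In 10835 genes each count equalled TPM times 1 factor per gene and 1 per library, within 1.07e-09 on the log2 scale.

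After rounding, the estimated counts went into edgeR 4.0.16 (R 4.3.3): filterByExpr with a minimum count of 10 (13905 genes kept), TMM factors, 1 robust quasi-likelihood fit of all 16 libraries and 3 contrasts. Genes were called at a Benjamini-Hochberg adjusted p under 0.05 over all genes, with no minimum fold. The SE is the size of the log2 fold change over the square root of F. The method was run on simulated counts drawn independently around means shared by all libraries, apart from changes set in Cre. These counts held no pair of libraries standing apart and no shift with gene length, so that run cannot speak to either. Library totals of 27929400 to 36043300 leave low genes such as Cox7a1 least precise. Replicate numbers come from the titles. The members and lists were chosen with earlier results of these data known. Named members are those called, the 5 with the smallest p per comparison, the highest and lowest of each complex, the mitochondrial members, the isoform genes, those nearest the threshold, and the called genes of the lists. Alternatives were other scalings, filters, samples and tests (DESeq2 1.42.0, limma 3.58.1), log2(TPM + 1) and log2(TPM + 0.1), a length offset, a replicate block and each library left out. Leaving out Flpo 1 and Cre 4 together and removing the Mup rows were added after seeing the data. Coordinates are of GRCm38 (GENCODE), and promoters are RefSeq's.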

Additional observations from a re-analysis of the deposited data

Results flagged for a closer look

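The values looked at made up 75 groups, from 22 members and from the nuclear sum, the mitochondrial sum and their ratio. In 9 groups a library had a gap to the others that was large for the range of its group. Chance passes this test in about 1 of 20 groups. Flpo 1 and Cre 4 held 6 of the 9. In Flpo 1 these were mt-Co2 at 3278 CPM (the other 5 Flpo libraries at 339 to 524), mt-Nd3 at 88.6 CPM (619 to 715) and mt-Nd4l at 294 CPM (98.8 to 107). In Cre 4 they were mt-Co2 at 4717 CPM (the other 4 Cre libraries at 315 to 595), mt-Nd3 at 71.8 CPM (569 to 594) and Ndufb4c at 17.2 CPM (22.6 to 24.1). The other 3 were Ndufc1 in GFP 3 at 76.1 CPM (32.5 to 42.8), Uqcrc2 in Cre 2 at 172 CPM (187 to 191) and mt-Atp6 in Cre 1 at 3866 CPM (1403 to 2090). What set these libraries apart was not tested.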

How the results depend on the processing

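The sign of the nuclear median was kept in all 29 alternatives for Cre against GFP (-0.38 to -0.08) and Flpo against Cre (0.04 to 0.31), and in 28 of 29 for Flpo against GFP (-0.12 to 0.01). Members called stayed at 0 in Flpo against GFP in every alternative. All genes called there, 4 in the fit reported, were 72 with DESeq2, 0 with limma-voom, 1 with only the 2 groups, 1 and 2 on log2(TPM + 1) and log2(TPM + 0.1), 0 to 15 with 1 library left out and 18 without Flpo 1 and Cre 4. In Cre against GFP the 3 members called were 35 with library totals, 8 with DESeq2, 50 and 51 on log2(TPM + 1) and log2(TPM + 0.1), 1 to 5 with 1 library left out and 7 without the pair. Of all genes, 14.1% were called there with library totals, 10.5% without the pair, and 960 to 1462 genes with 1 library left out. All genes called were 834 with only the 2 groups and 2127 and 2206 on the TPM scales. On those scales the nuclear medians were -0.37 and -0.38 and the mitochondrial medians -0.24 and -0.24. In Flpo against Cre the 6 members called were 20 with library totals, 42 and 43 on the TPM scales and 3 to 8 with 1 library left out. Of all genes, 16.3% were called there with library totals, 19.9% on log2(TPM + 1), and 1454 to 2189 genes with 1 library left out. On the TPM scales the nuclear medians were 0.31 and 0.31 and the mitochondrial 0.30 and 0.30. The cause of these differences was not tested. Same-numbered libraries of different groups correlated at -0.16 to 0.12, with 1 of 15 pairs over 0.1, so the numbers were not taken to pair libraries. With the replicate block, fitted without Flpo 6, all genes called in Flpo against GFP were 0, and members called were 0, 1 in Cre against GFP and 2 in Flpo against Cre. For DESeq2 and for this block, the share of all genes called in the comparisons with Cre is not given here. Of 57 values of named members, 22 changed sign in at least 1 alternative, all of them mitochondrial and none called in any alternative; mt-Co2 in Cre against GFP ran from -0.39 to 1.44. The median of mitochondrial members kept its sign in 24 of 29 alternatives in Cre against GFP (-0.24 to 0.06), 26 in Flpo against GFP (-0.03 to 0.10) and 29 in Flpo against Cre. Of members called in another comparison, the sign turned for mt-Nd2 in Flpo against GFP (0.00), at -0.0029 with library totals, -0.0037 with limma-voom, -0.068 without the pair and -0.070 to 0.057 with 1 library left out (below 0 without GFP 3, GFP 4, Flpo 1 or Flpo 4), and for mt-Nd1 in Cre against GFP, at -0.017 on both TPM scales. Low counts limit Cox7a1, Cox6b2 and Cox8b, and Cox8b did not enter the test.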
